A study of Homo sapiens with 8 samples.

Results

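The axon guidance ligands and receptors measured here were 69 of the 60286 genes of a single-cell data set on human neural cultures. They were chosen by name: the semaphorins (20 genes), the plexins and neuropilins that bind them (11), the ephrins (8) and their Eph receptors (14), the slits (3) and their ROBO receptors (4), and the netrins (4) with DCC and the UNC5 receptors (5). The rule uses names and no measured value, though these families were picked with earlier results of these data known, and the name SLITRK and antisense genes were left out. Growing axons read these families as attractive or repulsive signals. Semaphorins act through plexins, with neuropilins as co-receptors for the secreted class 3 proteins. Ephrins are bound to membranes and signal on contact in both directions, slits repel through ROBO receptors, and netrin 1 attracts through DCC and repels through UNC5 receptors. The same families act in cell migration, vessels and boundary formation, so glia, progenitors and mesenchymal cells also express them.

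The cells were derived from the human embryonic stem cell line H1 and were grown flat (2-D) or as organoids (3-D). The labels name dopamine, cocaine, morphine and untreated cultures jointly, with no dose or time, and the 8 deposited samples are portions of 1 pooled library. Groups were therefore read from the culture tag in each cell's name: 46 tags, each with a format, an arrangement, a treatment code and a number. The sources do not define the codes. AcCoc, AcMor and AcDop are read here from their letters as the cocaine, morphine and dopamine cultures and Vehic as their control, which is a reading and not a stated fact. The main groups were 2DMono and 3DMono (6 tags each, AcDop, AcMor and Vehic), 2DCocu (12 tags) and 3DFusi (10 tags), both with AcCoc, AcMor and Vehic. A further 12 tags carried one of 5 protocol names (2DProto2Fjo, 2DProto3Wu, 2DProto4Nic, 3DProto1For, 3DProto2Xia). Whether numbered tags were separate cultures is not stated, so p-values measure the spread between tags, which may be technical, and all cells share 1 donor line.

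The 43693 cells held 793413159 estimated counts, with a median of 12776 per cell. Tags held 317 to 1959 cells and 3624668 to 58777178 counts. Of 41192 cell barcodes, 2393 occurred in more than 1 sublibrary. The 8 sublibraries differed little, with a median coefficient of variation of 2.98% and a highest of 12.6% over the 50 members at 10 CPM or more. CPM is the count of a gene in a tag, scaled to the tag's total. It is not divided by gene length, so levels below are compared between groups for a gene and not between genes. Levels are means ± SD over tags. Tag sums were compared by the quasi-likelihood method of edgeR. The threshold is a Benjamini-Hochberg adjusted p of 0.05 over all genes tested.

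The family was broadly expressed. Of the 69 members, 57 reached 10 CPM and 31 reached 100 CPM in at least 1 arrangement, and 0 were under 1 CPM in every arrangement. Summed, they made up 0.808% to 1.51% of a tag's counts. The plot of mean levels by arrangement gives all 69 over the 9 arrangements. The secreted semaphorin SEMA3C had a mean of 713.6 CPM in 2DMono and 28.7 in 2DProto2Fjo. The netrin receptor UNC5D had 1238 in 2DMono and 141 in 2DProto2Fjo. The ligand NTN1 had 349.7 in 2DCocu and 22.7 in 2DProto4Nic.

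**Figure D1:**
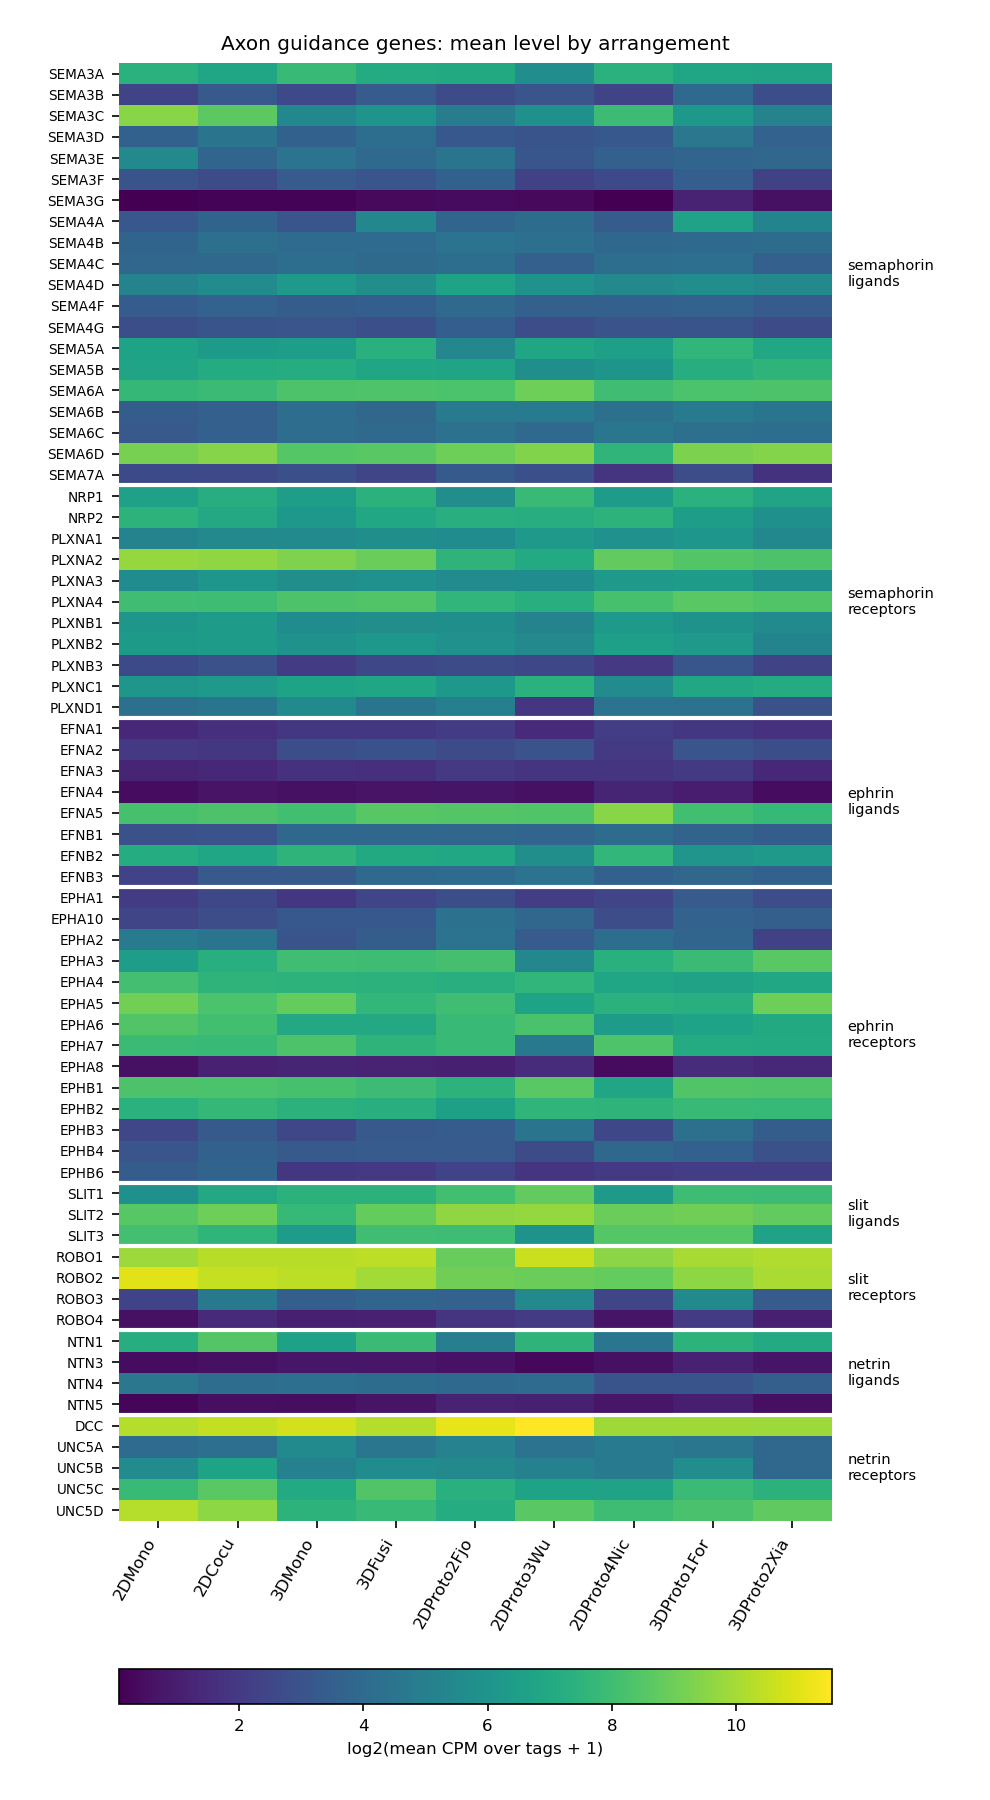
Mean level of each of the 69 members (rows, grouped by role) in each of the 9 arrangements (columns), as log2 of the mean CPM over tags plus 1. Brighter colours are higher levels. DCC, ROBO1 and ROBO2 are bright in every column, and SEMA3C and UNC5D are brightest in 2DMono and 2DCocu.

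Clusters drawn without the members' own values gave each member a level per cell class. These class levels are a description with no test, since the cells were grouped by expression. Of the 57 members that reached 10 CPM, 15 had their highest class mean in the 1 cluster named from the general neuron markers. That cluster held 846 cells, with RELN and LHX1 among its top genes. Another 11 members were highest in excitatory-like and 2 in GABAergic-like neurons. A further 10 were highest in mesenchymal-like cells, 6 in radial glia-like cells, 5 in ciliated-like cells, 4 in intermediate progenitor-like cells, 3 in astrocyte-like cells and 1 in cycling cells. NTN1 averaged 1366 ± 77.5 CPM in astrocyte-like cells (4 tags) and 610.2 ± 397 in ciliated-like cells (22 tags), against 42.1 in the neuron cluster. SLIT2 averaged 1279 ± 662 in ciliated-like cells, and SLIT3 544 ± 358 in mesenchymal-like cells (29 tags). Clusters holding 37.1% of cells had no name and were left out of these counts. A highest class is thus the highest among the named classes only. The classes depend on the resolution. At 0.4 in place of 0.8, no cluster was named from the general neuron markers, and a cluster with RELN and LHX1 among its top genes was named excitatory. There, 20 members were highest in excitatory-like neurons, 2 in GABAergic-like neurons, 10 in mesenchymal-like cells and 4 in muscle-like cells.

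Among receptors, UNC5D averaged 1633 ± 1654 CPM in excitatory-like neurons (40 tags) and 369 ± 127 in GABAergic-like neurons (31 tags). The contact receptor EPHA5 averaged 1098 ± 436 in excitatory-like neurons. The Eph receptor EPHA3 averaged 1335 ± 732 in the neuron cluster (7 tags) and 12.2 in astrocyte-like cells. UNC5C, an UNC5 receptor, was highest among the named classes in mesenchymal-like cells, at 551 ± 525. Its mean was higher in the GABAergic neurons of 2-D tags gated by transmitter genes, given below. Clusters with no name were not ranked, 1 of them (1165 cells) with SLC6A5 and PAX2 among its top genes. These class means pool tags of both formats, so their SDs include any difference between formats. With SDs near the means, the pooled class levels alone do not settle the order of neighbouring classes for UNC5C or UNC5D. Within 2-D tags, the gated neuron types compared below differed in the same direction in every tag for UNC5C and for UNC5D.

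Format was compared first over all cells. In such sums fewer cells of a type and less RNA per cell cannot be told apart. Between 3DMono and 2DMono (6 tags each), 35 of the 65 members tested changed, 16 higher and 19 lower in 3-D. Of all genes tested, 38% passed, 17.5% higher and 20.4% lower. The groups of tags did not overlap for 14 of the 65 members tested, all of them called, and for 21.5% of all genes tested, called or not. SEMA3C was at 714 ± 209 CPM in 2DMono and 41.1 ± 12.04 in 3DMono (log2 fold change -4.33 ± 0.26, where ± is the SE, adjusted p = 4.49e-08). UNC5D fell likewise, from 1238 ± 352 to 175 ± 49.2. EPHA2, EPHB6, SLIT3, EPHA6, NRP2 and SEMA6D also fell, with no overlap between the groups. The repellent SLIT1 rose from 56.4 ± 8.66 to 174 ± 34.9 (log2 fold change 1.45 ± 0.14, adjusted p = 1.54e-06). EPHA3, UNC5A, ROBO3, SEMA4D and SEMA6A rose, also without overlap. Markers of other cells moved with format: mesenchymal markers summed to a median of 1387 CPM in 2DMono and 479 in 3DMono, and intermediate progenitor markers to 10.7 and 46.9. Their part in these differences was not tested. SLIT3 is highest in mesenchymal-like cells.

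Between 3DFusi (10 tags) and 2DCocu (12 tags), 27 of 65 members changed, 9 higher and 18 lower, against 48.8% of all genes (26.1% higher, 22.7% lower). The 2 comparisons share no tags. They had 20 calls in common, 57.1% of the first list and 74.1% of the second, and 18 of these went the same way. Over all genes the shares were 62.7% and 47.3%, and 93.2% of shared calls went the same way. EFNA2, EFNB1, EFNB3, EPHA3, PLXNC1, SEMA6A and SLIT1 rose in both. EPHA2, EPHA6, EPHB6, NTN1, PLXNA2, PLXNB1, ROBO2, SEMA3C, SEMA6D, UNC5B and UNC5D fell in both. ROBO3 and ROBO4 moved in opposite directions, ROBO4 at a low level (mean of 1.34 CPM over the sublibraries). Between the Vehic tags alone, 3DFusi over 2DCocu had a log2 fold change of 0.09 for ROBO3 (adjusted p = 0.854), so its fall in the second comparison turned direction there. Marker sums of 2DCocu and 3DFusi had medians of 90.0 and 369 CPM for GABAergic, 111 and 31.9 for glycinergic, 169 and 131 for excitatory, 36.4 and 60.7 for oligodendrocyte lineage and 1839 and 1642 for mesenchymal cells, and their part was not tested. Of 7 ephrin ligands tested, 4 were higher and 1 lower in 3-D in the first comparison, and 3 higher and 0 lower in the second. Of 14 Eph receptors, 2 were higher and 4 lower in the first, and 1 higher and 7 lower in the second. Same-numbered 3DFusi tags deviated together, and with those tags summed to 1 sample a number 25 members passed in place of 27, of which 23 were the same.

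Whether the format difference was itself different in the 2 pairs was tested over the treatments all 4 arrangements share. It was for 11 of 68 members, 5 with a more positive and 6 with a more negative difference in the fused pair, against 8.8% of all genes (5.03% and 3.77%). ROBO3 and ROBO4 are among them. With 3DFusi tags summed by number 9 of the 11 passed, and EPHB4 (adjusted p = 0.086) and SEMA4D (adjusted p = 0.0624) did not.

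The same contrast was then made inside neurons. A cell was gated as glutamatergic when it held at least 2 counts of the vesicular glutamate transporters SLC17A6 and SLC17A7, under 0.5 of GAD1, GAD2 and SLC32A1, and at least 3 of STMN2, SYT1 and SNAP25. The GABAergic gate exchanged the first 2 conditions. No member is a gate gene. The gates held 3284 glutamatergic (7.52% of cells) and 7997 GABAergic cells (18.3%), of which 1439 and 1121 held under 3 transmitter counts. By these conditions themselves, GAD2 and SLC32A1 were at or near 0 in the glutamatergic gate, as was SLC17A6 in the GABAergic gate. Those values are therefore no check of the gates. Only tags with at least 20 gated cells entered, which removed 2DMono Vehic 2, 2DCocu Vehic 3 and 4 and 3DFusi AcCoc 2 from the glutamatergic fits. The gated tests and the all-cell tests use the same tags and are not independent. The neuron clusters at resolution 0.8 divided by format. Cells from 3-D tags were 0.0663%, 93.2%, 9.14% and 4.28% of the 4 excitatory-like clusters. They were 94.0%, 4.38%, 97.8% and 3.31% of the 4 GABAergic-like clusters. The gated format tests can thus compare different kinds of neuron, and words of change below do not mean change within 1 kind. The part of this division was not tested.

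In glutamatergic neurons, 20 of 56 members changed between 3DMono and 2DMono, 8 higher and 12 lower in 3-D, against 16.3% of all genes tested (6.87% higher, 9.43% lower). The 2 groups of tags did not overlap for 13 of the 56, all called, and for 10.7% of all genes. SEMA3C ranged from 20.5 to 39.4 CPM in the 6 3DMono tags (median 30.7) and from 1030.3 to 2379 in the 5 2DMono tags (median 1485). Every 3DMono tag thus lay far under every 2DMono tag (log2 fold change -5.84 ± 0.24, adjusted p = 4.72e-10). UNC5D ranged from 89.7 to 219 (median 106) against 2388 to 4044 (median 3217), a log2 fold change of -4.72 ± 0.25. The slit receptor ROBO2 ranged from 1074 to 1689 against 3677 to 4538, a log2 fold change of -1.80 ± 0.13. In the other direction, the semaphorin receptor PLXND1 ranged from 58.8 to 127 against 2.31 to 38.2 (log2 fold change 2.89 ± 0.39, adjusted p = 0.00025). SLIT1 ranged from 208 to 386 against 64.8 to 117 (log2 fold change 1.71 ± 0.20).

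Between 3DFusi (9 tags) and 2DCocu (10 tags), 30 of 55 members changed in glutamatergic neurons, 13 higher and 17 lower, against 28.8% of all genes (15.4% higher, 13.4% lower). SEMA3C was at 34.6 ± 14.8 CPM in 3DFusi and 899.8 ± 216 in 2DCocu (log2 fold change -4.62 ± 0.26, adjusted p = 2.5e-10). UNC5D was at 264 ± 123 against 2011 ± 609, and ROBO2 at 1439 ± 469 against 3764 ± 585. SLIT1 rose to 319.6 ± 64.3 from 121 ± 23.6, and SEMA5A, a transmembrane semaphorin, to 92.7 ± 34.7 from 18.3 ± 9.59. All 16 members called in both comparisons moved the same way, which is 80% of the first list and 53.3% of the second. Over all genes the shares were 55.9% and 34.8%, and 97.5% of shared calls had the same direction. EFNB2, EFNB3, EPHA3, PLXND1, SEMA3A and SLIT1 rose. EPHA4, EPHA5, EPHB6, NRP1, PLXNA2, ROBO2, SEMA3C, SEMA6D, SLIT2 and UNC5D fell. By role, Eph receptors gave 1 higher and 4 lower of 10 tested in the first comparison, and 1 higher and 5 lower of 9 in the second. Ephrin ligands gave 2 higher and 0 lower in each, of 5 and 4 tested. When 1 tag at a time was left out of the first comparison, EFNB3 lost its call in 8 of 11 fits (highest adjusted p 0.133 by edgeR), EPHA6 in 7 (0.134) and SEMA3A in 2 (0.0529), and the other 17 kept theirs. With 3DFusi tags summed by number 27 members passed in place of 30, of which 26 were the same.

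**Figure D2:**
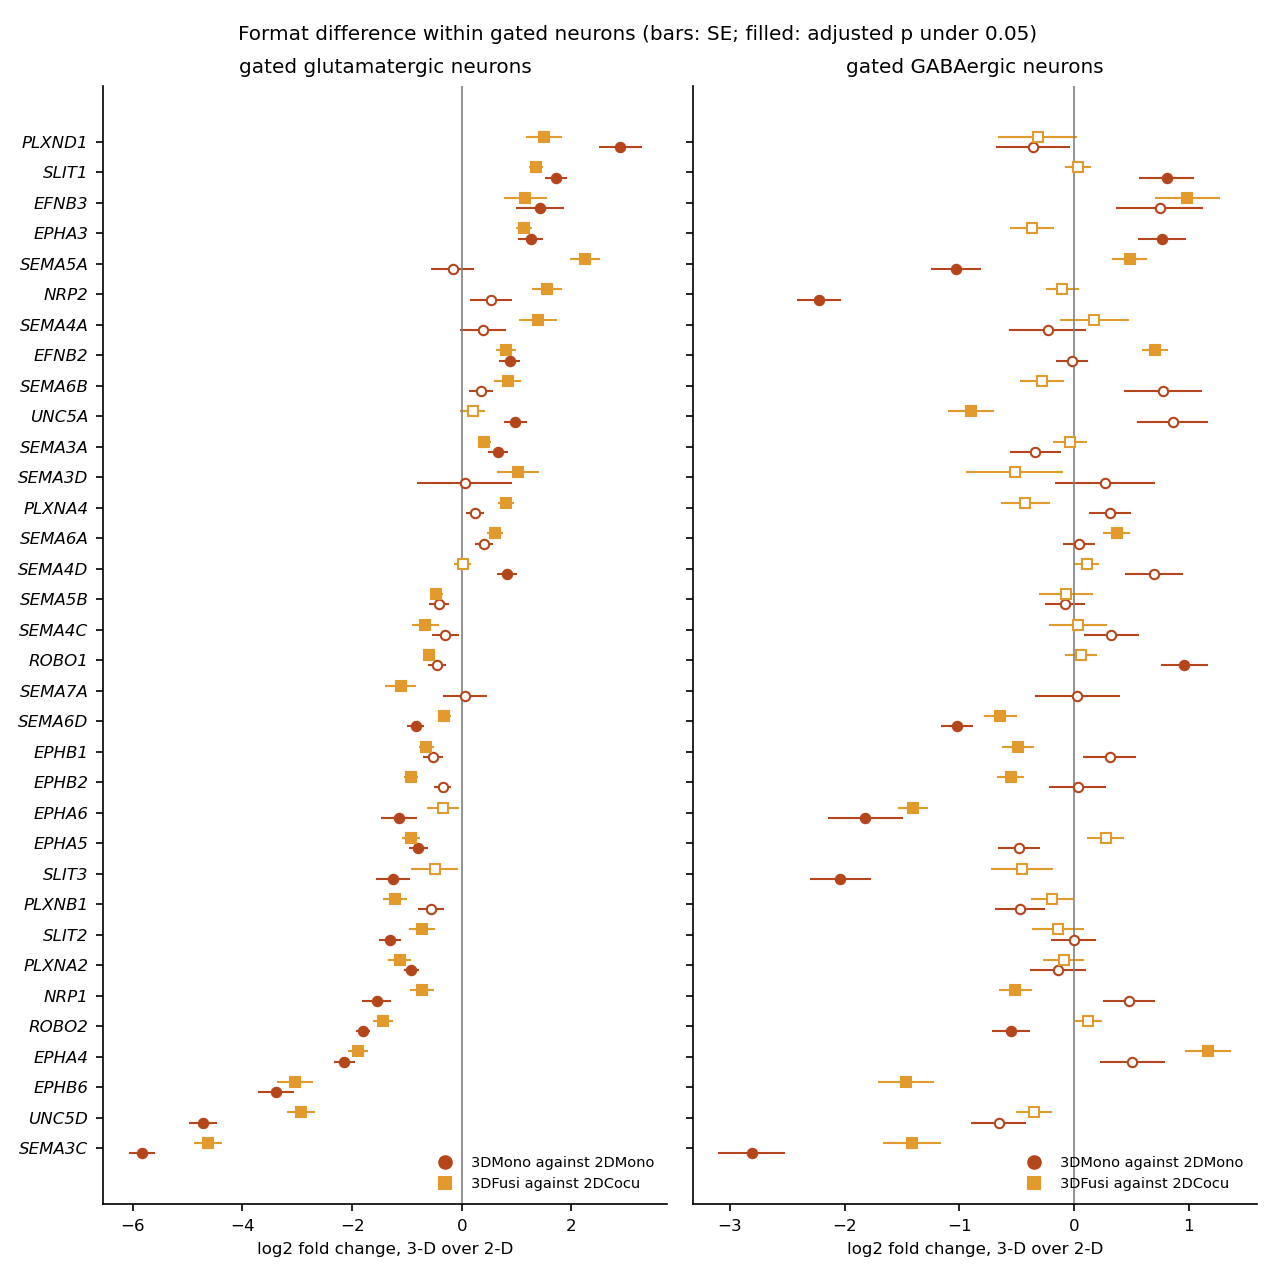
Log2 fold change of 3-D over 2-D (x axis, bars are SE) in gated glutamatergic and gated GABAergic neurons for the members called in at least 1 glutamatergic comparison, circles for 3DMono against 2DMono and squares for 3DFusi against 2DCocu, filled where the adjusted p is under 0.05. In glutamatergic neurons SEMA3C, UNC5D, EPHB6, EPHA4 and ROBO2 lie left of 0 in both comparisons and PLXND1, SLIT1, EFNB3 and EPHA3 right of 0, while EPHA4 lies right of 0 in GABAergic neurons.

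Other markers moved with these groups. In the glutamatergic gate the 8 excitatory markers summed to medians of 684 CPM in 2DMono, 537 in 3DMono, 535 in 2DCocu and 489.8 in 3DFusi, while SLC17A6 alone averaged 186 ± 75.6, 62.9 ± 44.7, 168 ± 44.3 and 106 ± 45.5. Mesenchymal markers summed to a median of 657 in 3DFusi (range 75.2 to 1235), 160.3 in 2DCocu (75.9 to 1607), 148 in 2DMono and 176 in 3DMono. Cycling markers summed to 419.5 in 2DMono, 198 in 3DMono, 235 in 2DCocu and 65.0 in 3DFusi. The part of these shifts in the differences of the guidance genes was not tested. With the gate raised to 4 transmitter counts, 13 members instead of 30 passed between 3DFusi and 2DCocu. The share of all genes at that gate is not given.

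In GABAergic neurons, 15 of 58 members changed between 3DMono and 2DMono, 5 higher and 10 lower, against 19.6% of all genes (7.44% higher, 12.1% lower). The groups did not overlap for 4 of the 58, all called, and for 8.62% of all genes. Between 3DFusi and 2DCocu 25 of 59 changed, 9 higher and 16 lower, against 41% of all genes (20.9% higher, 20.1% lower), and the groups did not overlap for 4 of the 59, all called, against 4.6%. In all, 7 were called in both, 46.7% and 28% of the lists, against 60.01% and 30.2% over all genes, and 5 of the 7 went the same way, against 92.2%. EPHA2, EPHA6, SEMA3C, SEMA6D and UNC5B fell in both, and ROBO3 and SEMA5A moved in opposite directions. Of 5 ephrin ligands tested, 0 were higher and 1 lower in the first comparison, and 4 higher and 0 lower in the second. With 3DFusi tags summed by number 19 members passed in place of 25, of which 18 were the same. SEMA3C was at 49.2 ± 25.4 CPM in 3DMono and 300.2 ± 109 in 2DMono (log2 fold change -2.81 ± 0.29, adjusted p = 3.62e-05). The neuropilin NRP2 ranged from 34.8 to 79.3 in 3DMono and from 183 to 299 in 2DMono, a fall of 2.23 ± 0.19 on the log2 scale. SLIT3 also fell, to 84.2 ± 52.4 from 283 ± 103. The part of marker shifts within this gate in these differences was not tested.

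Between 3DFusi and 2DCocu, 0 of the 5 netrin receptors rose and 4 fell in GABAergic neurons (DCC, UNC5A, UNC5B and UNC5C), against 20.9% of all genes higher and 20.1% lower, and all 4 also passed with 3DFusi tags summed by number. UNC5C was at 206 ± 97.4 CPM in 3DFusi and 839 ± 266 in 2DCocu (log2 fold change -2.08 ± 0.29), and UNC5B at 31.9 ± 17.3 against 108 ± 35.1. ROBO3, a slit receptor family member known from midline crossing, was at 10.2 with a range of 0.269 to 33.9, against 123 ± 63.3. The ephrin ligand EFNB2 rose to 135 ± 21.0 from 80.7 ± 13.1. The gate does not hold 1 kind of neuron: PAX2 averaged 335 ± 136 CPM and the glycine transporter SLC6A5 204 ± 89.0 in 2DCocu, against 36.3 ± 43.8 and 4.77 ± 8.33 in 3DFusi and at most 13.6 in the 2 Mono groups. The 4 glycinergic markers summed to a median of 647 in 2DCocu and 53.3 in 3DFusi. Their part in the differences of UNC5C, UNC5B and ROBO3 was not tested.

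**Figure D3:**
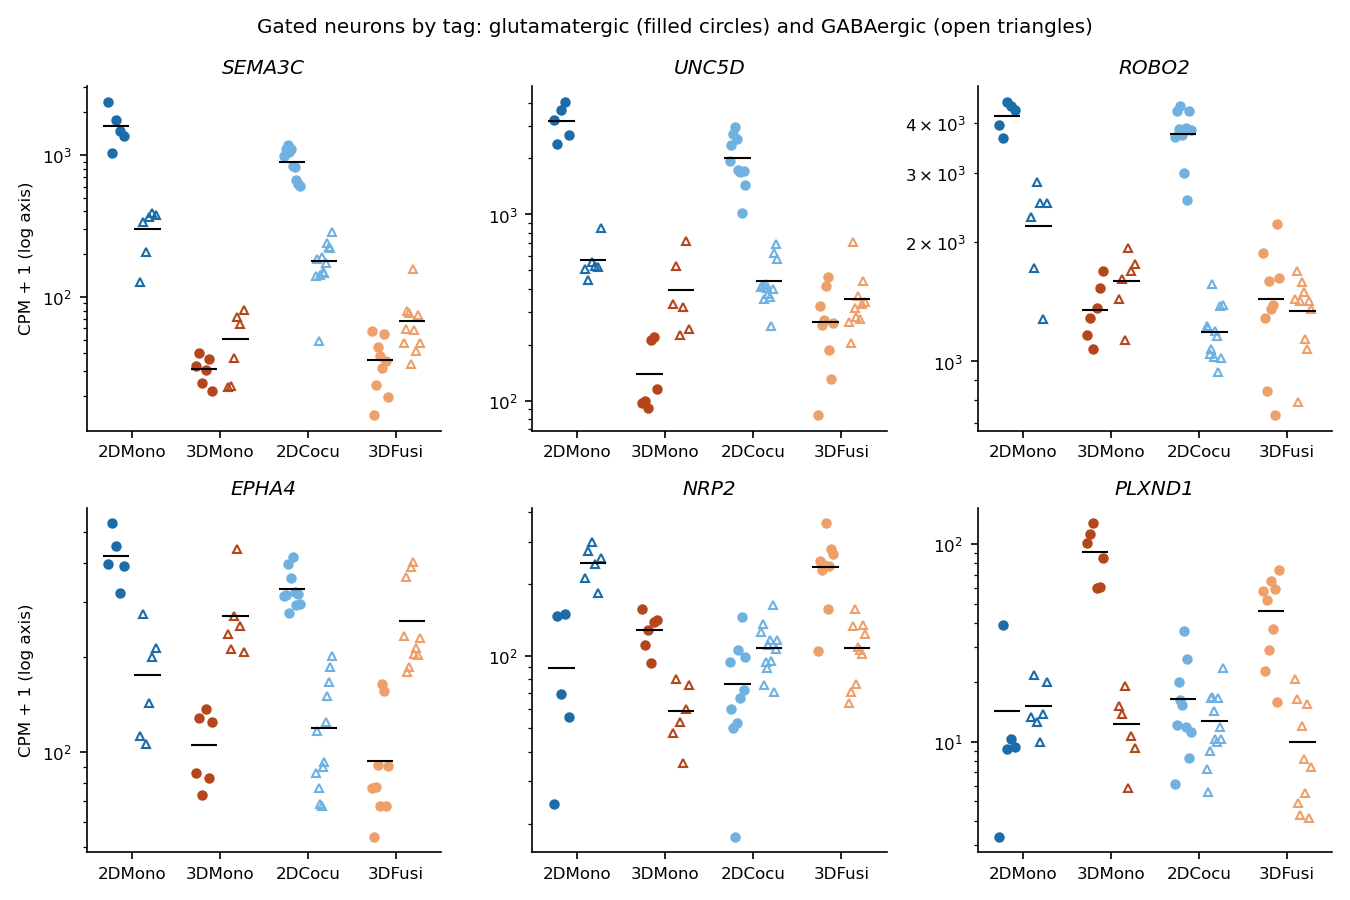
CPM plus 1 on a log axis for 6 members in each tag of the 4 main arrangements, filled circles for gated glutamatergic and open triangles for gated GABAergic neurons, with horizontal bars at the means. SEMA3C, UNC5D and ROBO2 have their highest means in the glutamatergic circles of 2DMono and 2DCocu, and EPHA4 and NRP2 exchange the order of the 2 neuron types between 2-D and 3-D.

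The 2 neuron types were then compared within each tag, over 15 2-D tags (2DMono and 2DCocu) and 15 3-D tags (3DMono and 3DFusi). In 2-D, 34 of 60 members differed, 21 higher and 13 lower in glutamatergic neurons, against 33.1% of all genes (14.5% higher, 18.6% lower). The groups did not overlap for 8 of the 60, all called, and for 1.24% of all genes. UNC5D was at 2405 ± 839 CPM in glutamatergic and 437 ± 94.4 in GABAergic neurons and higher in 15 of 15 tags (log2 fold change 2.45 ± 0.11, adjusted p = 6.62e-14). SEMA3C, EPHB6, EPHA5, EPHA4 and PLXNA2, a plexin, were also higher in 15 of 15 tags. UNC5C was at 104 ± 56.7 against 713 ± 337 and SEMA5A at 19.3 ± 9.65 against 138 ± 65.8, higher in 0 of 15 tags each.

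In 3-D, 32 of 60 members differed, 19 higher and 13 lower, against 22.7% of all genes (12.1% higher, 10.6% lower), and 2 of the 60, both called, had groups with no overlap against 0.638%. SEMA3A, the classical growth cone repellent, was at 320.0 ± 54.4 CPM in glutamatergic and 105 ± 31.1 in GABAergic neurons (adjusted p = 7.05e-12, higher in 15 of 15 tags). Its receptor PLXNA4 was at 732 ± 222 against 221 ± 103 and PLXND1 at 63.0 ± 32.2 against 9.46 ± 5.45, both higher in 15 of 15 tags. SEMA3A and PLXNA4 also differed in 2-D, with log2 fold changes of 1.05 ± 0.14 and 0.98 ± 0.21. Of 20 members called in both formats (58.8% and 62.5% of the lists, against 37.6% and 49.01% over all genes), 17 had the same direction, as did 86.9% of all genes called in both: EPHA5, EPHA6, EPHA7, EPHB1, PLXNA4, SEMA3A, SEMA3E, SEMA4D, SEMA6D, SEMA7A and UNC5A were higher in glutamatergic neurons, and EPHA2, EPHB4, NTN1, PLXNB2, PLXNC1 and SEMA5A lower. EPHA4, NRP2 and UNC5D had opposite directions. With the gate raised to 4 transmitter counts, EPHA6 had a log2 fold change of -0.0073 in 2-D (adjusted p = 0.994 by edgeR), and EPHB1, NTN1, PLXNA4, PLXNB2, SEMA6D, SEMA7A and UNC5A also lost their 2-D calls. In 3-D that gate ended the calls of EPHB1, NTN1, SEMA3E, SEMA4D, SEMA5A, SEMA7A and UNC5D (-0.37, adjusted p = 0.324 for UNC5D), while EPHA4 and NRP2 passed in both formats. EPHB4 was not tested with it in either format, nor EPHA2 in 3-D.

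EPHA4, an Eph receptor that binds ephrins of both classes, and NRP2, the co-receptor of SEMA3F and SEMA3C, are shown with their promoters because their order between neuron types exchanged with format. EPHA4 lies at chr2:221418027-221574202 on the minus strand and NRP2 at chr2:205681990-205798133 on the plus strand (GRCh38, GENCODE release 29). Each sequence below holds 250 bases before and 50 after a RefSeq start (GRCh38.p14), 5′ to 3′ on the gene's strand. Capitals mark GGGCGG or its complement CCGCCC, the GC box of SP factors. The 2 EPHA4 starts lie at chr2:221574153-221574452 and chr2:221572255-221572554, and the NRP2 start at chr2:205682251-205682550.
EPHA4 start 1: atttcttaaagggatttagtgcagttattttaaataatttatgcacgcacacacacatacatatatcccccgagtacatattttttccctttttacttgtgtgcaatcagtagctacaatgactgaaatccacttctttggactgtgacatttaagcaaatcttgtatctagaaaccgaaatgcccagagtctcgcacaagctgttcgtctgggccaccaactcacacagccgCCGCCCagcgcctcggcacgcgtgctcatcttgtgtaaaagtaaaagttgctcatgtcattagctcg
EPHA4 start 2: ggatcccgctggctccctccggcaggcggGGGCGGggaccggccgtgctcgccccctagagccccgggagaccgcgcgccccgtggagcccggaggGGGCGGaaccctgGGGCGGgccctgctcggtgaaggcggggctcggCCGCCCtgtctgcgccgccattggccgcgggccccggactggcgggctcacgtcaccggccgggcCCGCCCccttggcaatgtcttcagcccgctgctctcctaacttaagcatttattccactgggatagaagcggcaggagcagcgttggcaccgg
NRP2: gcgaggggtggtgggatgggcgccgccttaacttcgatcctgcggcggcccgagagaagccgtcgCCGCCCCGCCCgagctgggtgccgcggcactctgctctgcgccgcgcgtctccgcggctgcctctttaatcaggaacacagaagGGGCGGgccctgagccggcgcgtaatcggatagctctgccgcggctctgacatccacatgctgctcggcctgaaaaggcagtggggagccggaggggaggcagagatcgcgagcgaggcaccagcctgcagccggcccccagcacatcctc
The GC box occurred 1 time and 5 times at the EPHA4 starts and 3 times at NRP2, counting matches that overlap each other. Some GC box lay in 72.5% of the 91 promoters of the 59 members found in the table and in 45.0% of all 35116 promoters. The E box CAGATG or CATCTG occurred in none of the 3, in 8.79% of members' and in 14.7% of all promoters. These matches are letters in a window and not shown to be sites.

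In 2-D tags EPHA4 ranged from 276 to 532 CPM in glutamatergic (median 323) and from 66.6 to 274 in GABAergic neurons (median 112). It was higher in glutamatergic neurons in 15 of 15 tags and the ranges did not overlap (log2 fold change 1.64 ± 0.13, adjusted p = 9.56e-09). In 3-D tags it ranged from 52.9 to 164 (median 84.6) against 178 to 441 (median 229), and the order was reversed in every tag (log2 fold change -1.35 ± 0.15, adjusted p = 4.74e-06). EPHA4 fell in glutamatergic neurons in both format comparisons. In GABAergic neurons EPHA4 rose between 2DCocu and 3DFusi (118 ± 47.3 to 259 ± 87.1, adjusted p = 8.03e-05) and was at 175 ± 65.9 in 2DMono and 269 ± 87.2 in 3DMono (adjusted p = 0.246).

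NRP2 ranged from 16.6 to 149 CPM in glutamatergic (median 69.1) and from 69.8 to 299 in GABAergic neurons (median 126) of 2-D tags. It was higher in glutamatergic neurons in 2 of 15 tags (log2 fold change -0.92 ± 0.24, adjusted p = 0.00781). In 3-D tags it ranged from 93.7 to 359 (median 157) against 34.8 to 157 (median 79.3) and was higher in 15 of 15 tags (log2 fold change 1.17 ± 0.10, adjusted p = 2.45e-08). UNC5D was at 214 ± 118 in glutamatergic and 378 ± 157 in GABAergic neurons of 3-D tags and higher in 2 of 15.

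The difference between formats was tested in 1 fit over both, added after the data were seen. It passed for 27 of 61 members, 14 higher and 13 lower in 3-D, against 16.1% of all genes (9.21% higher, 6.93% lower). The glutamatergic against GABAergic difference moved by -3.33 ± 0.25 on the log2 scale for UNC5D (adjusted p = 8.68e-11), by -3.21 ± 0.36 for SEMA3C, by -2.99 ± 0.21 for EPHA4 (adjusted p = 2.23e-11) and by 2.08 ± 0.27 for NRP2 (adjusted p = 1.65e-06). PLXND1, ROBO3 and UNC5C moved by 2.42 ± 0.29, 2.70 ± 0.84 and 2.17 ± 0.41. With 3DFusi tags summed by number, 24 of the 27 passed, EPHA4, NRP2, UNC5D and SEMA3C among them. With the gate raised to 4 counts, 8 instead of 27 members passed, and the counts within 2-D and 3-D fell to 19 each. Shares of all genes at that gate are not given, so this loss cannot be set against that of all genes. The marker shifts given above for the glutamatergic gate and the glycinergic shift given for the GABAergic gate apply here too. So does the division of the neuron clusters by format, whose part was not tested. Shifts of other markers in the GABAergic gate are not given here, and their part was not tested.

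**Figure D4:**
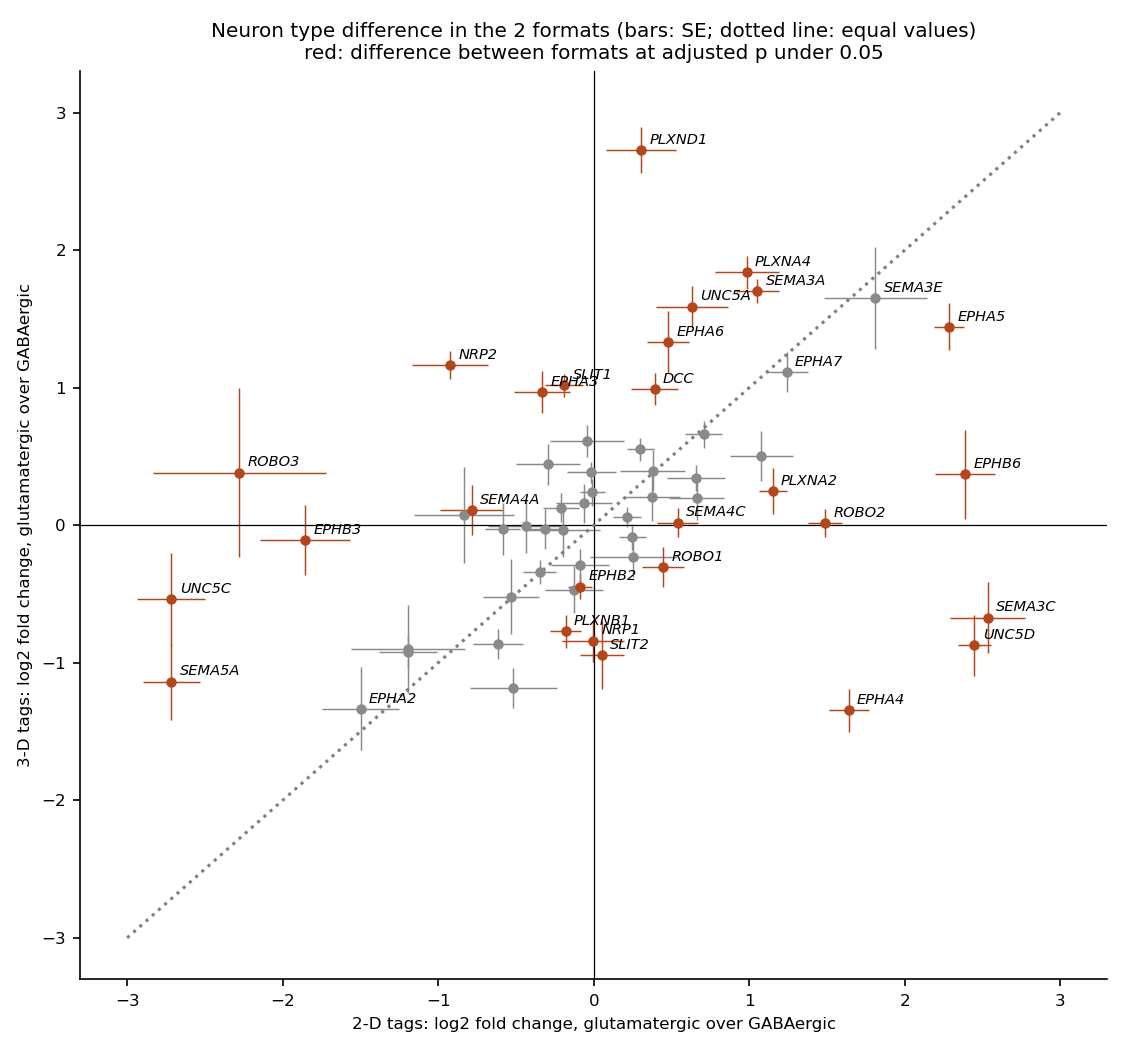
Log2 fold change of glutamatergic over GABAergic neurons in 2-D tags (x axis) and 3-D tags (y axis) for each member tested in both, with SE bars and a dotted line of equal values, red where the difference between formats has an adjusted p under 0.05. EPHA4 and UNC5D lie right of 0 and under 0, and NRP2 left of 0 and above 0.

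Arrangement within a format was compared over the treatments both arrangements carry (AcMor and Vehic). In 2-D, 36 of 65 members differed between 2DCocu (8 tags) and 2DMono (4 tags), 19 higher and 17 lower, against 29.9% of all genes (14.6% higher, 15.3% lower), and 17 of the 65, of which 16 were called, had groups with no overlap against 12.2%. NTN1 ranged from 232 to 544 CPM in 2DCocu and from 132 to 178 in 2DMono (log2 fold change 1.23 ± 0.15, adjusted p = 1.03e-05). Of its 5 receptors, UNC5B and UNC5C rose, to 115 ± 13.0 from 46.7 ± 12.7 and to 387 ± 61.9 from 209 ± 21.3. UNC5D fell to 643 ± 193 from 1245 ± 349, and DCC and UNC5A did not pass (log2 fold changes -0.02 ± 0.13 and -0.07 ± 0.13). SLIT1 rose to 129.7 ± 13.0 from 59.4 ± 9.31 and ROBO3 to 23.8 ± 10.6 from 4.61 ± 0.57. SEMA3C (342 ± 83.3 against 682 ± 153), SEMA3E, EPHA4 and EFNB2 fell, with no overlap. Over all tags of 2DCocu and 2DMono, marker sums had medians of 111 and 25.02 CPM for glycinergic, 90.0 and 179.6 for GABAergic, 169 and 262 for excitatory, 301 and 538 for cycling, 182 and 102 for ciliated cells and 731 and 881 for astrocytes. Among the named classes, NTN1 is highest in astrocyte-like and next in ciliated-like cells, whose markers thus moved in opposite directions. The part of these marker shifts was not tested.

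In 3-D, 5 of 68 members differed between 3DFusi (6 tags) and 3DMono (4 tags), 3 higher and 2 lower, against 1.48% of all genes (1.08% higher, 0.398% lower). The groups did not overlap for 7 of the 68, of which 4 were called, and for 4.31% of all genes. NTN1 rose to 271 ± 57.8 CPM from 109.5 ± 50.9, SLIT2 to 469 ± 128 from 222 ± 88.5 and SEMA5A to 168 ± 27.0 from 94.4 ± 45.7. EPHA5 fell to 205 ± 36.7 from 424 ± 111 and EPHA7 to 184 ± 31.1 from 303 ± 48.6. Over all tags of 3DFusi and 3DMono, marker sums had medians of 1642 and 479 CPM for mesenchymal, 369 and 235 for GABAergic, 318 and 530.4 for cycling, 60.7 and 27.4 for oligodendrocyte lineage and 22.3 and 46.9 for intermediate progenitor cells. Glutamatergic-gated cells were a median of 4.97% of 3DFusi tags and 9.50% of 3DMono tags. EPHA5 and EPHA7, which fell, have their highest class mean in excitatory-like neurons. The part of these shifts was not tested. When the 3DFusi tags of a number, which deviated together, were summed to 1 sample each, 0 of the 5 passed. SEMA4A, which was not called, shows this sharing for number 4 and not for number 3. In 3DFusi it was at 139.8 CPM in AcCoc 4, 109.8 in Vehic 4 and 39.8 in AcMor 4. AcCoc 3 was at 41.0, and the other 6 tags, AcMor 3 and Vehic 3 among them, were at 6.15 to 19.99. The highest class of SEMA4A was mesenchymal-like, at 76.2 ± 124 CPM.

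AcCoc tags of 2DCocu differed from Vehic tags in 13 of 65 members, 10 higher and 3 lower, against 6.09% of all genes (3.6% higher, 2.49% lower). The groups did not overlap for 12 of the 65, of which 9 were called, and for 12.1% of all genes. SEMA3C was at 455, 486, 527 and 542 CPM in the 4 AcCoc tags and at 259, 289, 212 and 334 in the 4 Vehic tags. Every AcCoc tag was higher (log2 fold change 0.92 ± 0.11, adjusted p = 0.000704). UNC5D was at 839, 998, 1103 and 1271 in AcCoc against 579, 497, 406 and 593 in Vehic (log2 fold change 1.07 ± 0.16). EPHA5 was at 347, 394, 431 and 470.2 against 192, 217, 95.5 and 219.9 (log2 fold change 1.23 ± 0.19). EPHB6, ROBO2, EPHA6 and EPHA7 also rose without overlap, and DCC, PLXNA4 and EFNA3 rose with overlap. SEMA5A fell to 57.9 ± 10.9 from 95.9 ± 4.61 and UNC5B to 80.4 ± 14.5 from 117 ± 9.85, both without overlap. NTN1 fell to 288 ± 63.3 from 479 ± 91.1, with overlap. Leaving out 1 tag at a time gave 7 to 17 calls, the fewest without AcCoc 3 or Vehic 3. SEMA3C, UNC5D, EPHA5, EPHB6, ROBO2, EPHA7 and SEMA5A passed in all 8 of these fits. NTN1 and DCC lost their call in 4 of 8, UNC5B, EPHA6 and EFNA3 in 5 and PLXNA4 in 6.

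AcMor tags, compared with the same Vehic tags, differed in 4 of 65 members, 3 higher and 1 lower, against 0.975% of all genes (0.685% higher, 0.29% lower). The groups did not overlap for 13 of the 65, the 4 called among them, and for 8.59% of all genes. SEMA3C was at 451, 405, 414 and 371 CPM in AcMor (log2 fold change 0.62 ± 0.11, adjusted p = 0.0191). EPHA5 and EPHB6 were higher (log2 fold changes 0.96 ± 0.19 and 0.90 ± 0.20), and NTN1 was lower at 282 ± 43.2 (log2 fold change -0.72 ± 0.17, adjusted p = 0.0488). Leaving out AcMor 1, 2 or 3 or Vehic 1 ended all 4 calls, and with the tag number as a block 1 remained. Over the 8 fits that leave out 1 tag, EPHB6 lost its call in 8 (adjusted p 0.0506 to 0.155 by edgeR), NTN1 in 7, SEMA3C in 5 and EPHA5 in 4.

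The share of gated neurons moved with both treatments. Glutamatergic cells made up 1.59% to 4.05% of Vehic tags, 8.23% to 15.2% of AcCoc tags and 6.45% to 8.90% of AcMor tags, and GABAergic cells 3.05% to 7.76%, 9.65% to 11.4% and 9.76% to 12.6%. Summed excitatory markers ranged from 90.0 to 124 CPM in Vehic, 166 to 226 in AcCoc and 164 to 209 in AcMor. Ciliated markers ranged from 183 to 250, 126 to 196 and 125 to 193, glycinergic markers from 61.9 to 90.9, 102 to 136 and 114 to 121, and oligodendrocyte lineage markers from 44.4 to 50.3, 25.2 to 33.2 and 31.0 to 44.0. Mesenchymal markers had medians of 1839, 1097 and 2465, and UNC5B, which fell in AcCoc tags, is highest in mesenchymal-like cells (217 ± 185 CPM). The part of these shifts was not tested. Among gated glutamatergic neurons of 2DCocu, where 2 Vehic tags remained, edgeR called 0 of 54 members for AcCoc (8 at an unadjusted p under 0.05) and 0 for AcMor (6). Of all genes 0% passed in either, and 6.45% and 5.03% had an unadjusted p under 0.05. SEMA3C had a log2 fold change of 0.84 ± 0.15 there (adjusted p = 0.105). With tags of at least 10 gated cells, a limit set after the data were seen, it was 0.87 ± 0.14 (adjusted p = 0.0201). DESeq2 called SEMA3C alone (adjusted p = 0.00255).

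**Figure D5:**
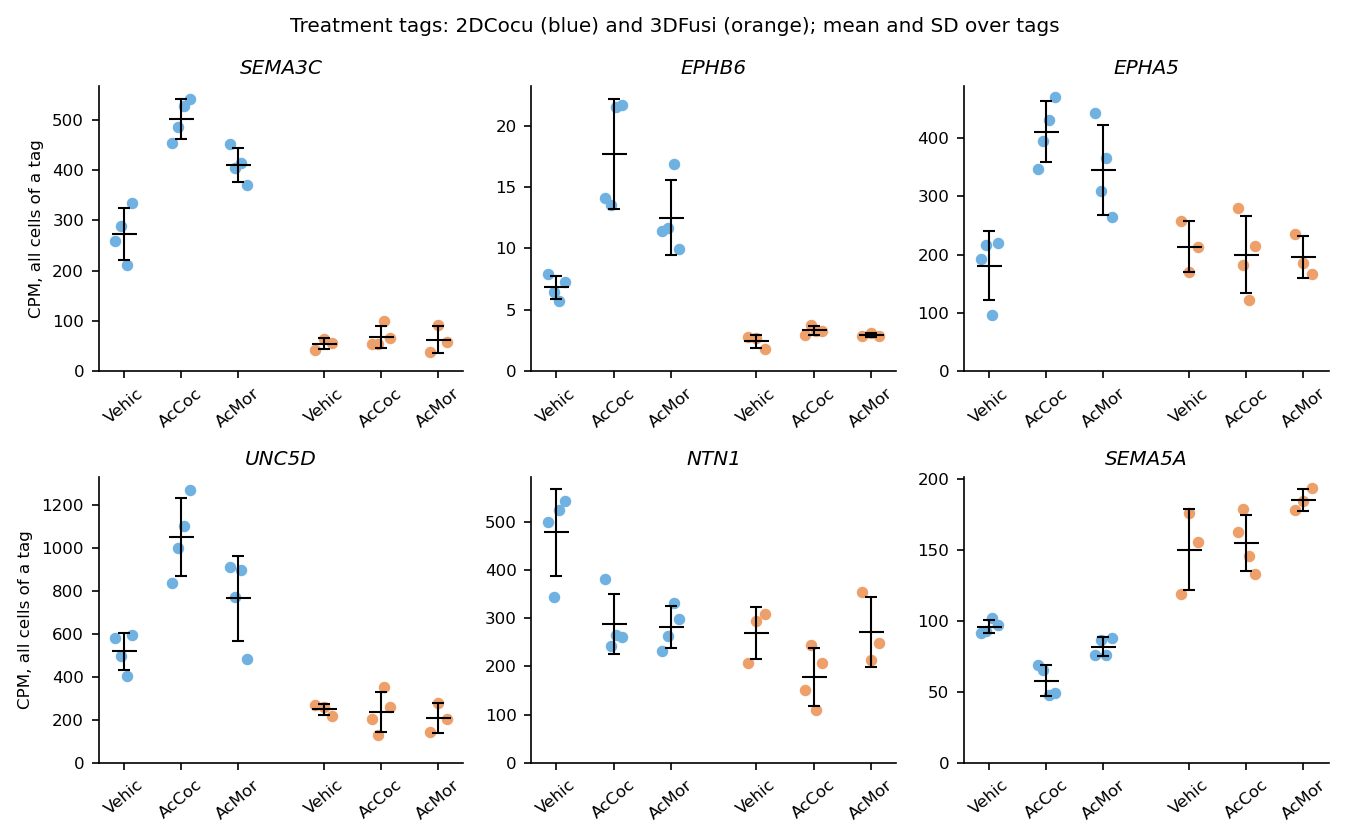
CPM over all cells of a tag for 6 members in Vehic, AcCoc and AcMor tags of 2DCocu (blue) and 3DFusi (orange), points are tags and bars the mean and SD. In 2DCocu the AcCoc tags of SEMA3C, EPHB6, EPHA5 and UNC5D all lie above the Vehic tags and those of SEMA5A under them. In 3DFusi the AcCoc and Vehic tags overlap for SEMA3C, EPHA5, UNC5D, NTN1 and SEMA5A and do not for EPHB6.

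No member passed in the other treatment comparisons over all cells by edgeR as fitted here, which for AcMor in 3DMono depended on the fit: 13 members passed with no filter on low counts, 3 by DESeq2, and 0 to 9 with 1 tag left out, 9 of them without AcMor 2. With no filter 1 member also passed for AcMor in 2DMono and 1 for AcDop in 3DMono. At the adjusted threshold 0% of all genes passed in each of these comparisons as fitted here. The shares of all genes under the other fits are not given, so their counts of members have no background. At an unadjusted p under 0.05 were 1 of 68 members in 3DFusi for AcCoc, against 1.66% of all genes, and 0 for AcMor, against 0.748%. In 2DMono 1 of 63 members was for AcDop, against 2.42%, and 6 for AcMor, against 6.42%. In 3DMono 1 of 65 was for AcDop, against 3.35%, and 17 for AcMor, against 8.71%. The groups of tags did not overlap in 3DFusi for 1 of 68 members for AcCoc (2.17% of all genes) and 4 for AcMor (5.28%). In 2DMono this held for 10 of 63 for AcDop (22.6%) and 33 for AcMor (41.2%), and in 3DMono for 23 of 65 (34.6%) and 26 (36.3%), with 2 tags a group. With 2 to 4 tags a group, these comparisons do not show that the treatments had no effect. The 3DFusi fits given here also had no term for the tag number, although same-numbered 3DFusi tags deviated together (correlations 0.162 to 0.661). What such tags shared was thus counted as spread between tags in the 3DFusi p-values. Whether the AcCoc difference was itself different in 2DCocu and 3DFusi was not tested.

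Of 68 members, 46 differed between the 3 2-D protocols (2 tags each) in a joint test, against 39% of all genes. EPHA7 was at 228 and 233 CPM in 2DProto2Fjo, 27.0 and 23.4 in 2DProto3Wu, and 368 and 293 in 2DProto4Nic. NTN1 was at 35.0 and 24.97, 196 and 175, and 18.6 and 26.7. SEMA3C was at 31.6 and 25.7, 50.9 and 59.3, and 242 and 249. The neuropilin NRP1 was at 54.6 and 49.6, 226 and 213, and 84.1 and 84.5. Cell makeup differed between these protocols, and its part was not tested. GABAergic-gated cells were 7.49% and 9.33% of the 2DProto2Fjo tags, 47.7% and 49.1% of the 2DProto3Wu tags and 3.81% and 7.78% of the 2DProto4Nic tags. Marker sums had medians, in that order, of 301, 26.6 and 106 CPM for excitatory neurons and 219, 225 and 3800.4 for mesenchymal cells. Between the 2 3-D protocols (3 tags each) 0 of 67 members passed, against 0% of all genes, with 11 at an unadjusted p under 0.05 against 7.78% of all genes.

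Genes around these families were counted from 2 lists, 23 other guidance cues and receptors and 38 intracellular effectors. In glutamatergic neurons, 4 of 19 tested cues rose and 5 fell between 2DMono and 3DMono, and 4 rose and 4 fell of 19 between 2DCocu and 3DFusi. Of all genes, 6.87% rose and 9.43% fell in the first comparison and 15.4% and 13.4% in the second. The axonal adhesion molecule CNTN2 fell by 2.69 and 3.44 on the log2 scale and CHL1, of the L1 family, by 1.56 and 1.01. DRAXIN, a secreted repellent that binds DCC, rose by 1.51 and 1.46. Of 36 effectors, 4 rose and 9 fell in the first and 6 rose and 13 fell in the second. ABLIM1, an actin-binding protein, fell by 3.68 and 1.57, and CHN2, a RAC-inactivating chimaerin, rose by 1.54 and 1.24. The related CHN1, which acts downstream of EPHA4, fell by 1.01 and 0.60. In AcCoc tags of 2DCocu 6 of 21 cues rose and 0 fell, against 3.6% and 2.49% of all genes, with L1CAM at a log2 fold change of 1.51. Of 38 effectors 1 changed, MICAL2, which fell by 0.73.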

How the data were processed

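Single-cell RNA of H1-derived cultures was barcoded by a split-pool kit from polyA RNA, per the labels' protocols. Per the submitters' processing notes, hg38, Salmon 1.7.0 with alevin and Seurat 4.1.1 were used, with no order given. The authors deposited 1 matrix of expected counts that alevin estimated per gene and cell, 54.3% of its entries whole, of cells with at least 1006 genes. Whether strand or unspliced reads were counted is not stated, so genes that overlap a member can share its reads. Counts were summed per tag, rounded and tested with edgeR 4.0.16 (R 4.3.3; limma 3.58.1, filterByExpr, TMM, robust quasi-likelihood), with treatment, or tag for neuron types, as a term. DESeq2 1.42.0, no filter, Vehic tags alone, a replicate block, a gate of 4 counts, leaving out the deepest 5% of cells per tag and leaving out tags were alternatives. The fit of neuron type by format, tags with at least 10 gated cells, leaving out each tag in the gated 3DMono and 2DMono fit and 3DFusi tags summed by number were chosen after seeing the data. Doublets were not called, and 745 cells over both gates were left out of the gates. Leiden clusters (leidenalg 0.10.2, resolution 0.8 or 0.4) used 2000 variable genes without the members. A class needed 3 markers and 40% of its list, and no other list with more of the cluster's top genes. Levels of a class needed 4 tags with at least 20 cells.

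The gene families, lists and comparisons were chosen with earlier results of these data known, and the members of a family then by name alone. Named with values were members past the threshold whose groups of tags did not overlap, members whose partner family is described, complete lists of shared calls, and the other genes given, which were chosen after their values were seen. Same-numbered 3DFusi tags deviated together (correlations 0.162 to 0.661 over 9 pairs), so numbers were taken to pair those tags, from the data and not from the labels. The correlations ranged from -0.441 to 0.146 in 2DCocu, from -0.146 to 0.207 in 2DMono and from 0.0826 to 0.302 in 3DMono. The 3DMono tags were not summed by number. A self-test used simulated counts for 3DMono against 2DMono over all cells, with 1 spread set for all genes. In it 70.5% of 2-fold and 100% of 4-fold changes passed, and 9 unchanged genes were called. Promoters come from RefSeq (GRCh38.p14), where 59 of 69 members matched.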

Additional observations from a re-analysis of the deposited data

Results flagged for a closer look

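The format difference itself differed between the 2 pairs of arrangements for 11 of 68 members (8.8% of all genes), tested as 3DFusi against 2DCocu minus 3DMono against 2DMono on the treatments all 4 share. The difference was positive, so that the 3-D value was relatively higher in the fused pair, for SLIT3 (2.16 on the log2 scale), SEMA3C (1.47), UNC5D (1.41), SEMA5A (1.27) and NRP2 (1.197). It was negative for ROBO4 (-2.25), ROBO3 (-1.92), PLXND1 (-1.52), SLIT1 (-0.96), EPHB4 (-0.90) and SEMA4D (-0.70). ROBO4 was low, with a mean of 1.34 CPM over the sublibraries. EPHB4 and SEMA4D did not pass with 3DFusi tags summed by number. The glutamatergic against GABAergic difference had opposite directions in 2-D and 3-D, with a tested difference between formats, for UNC5D (-3.33), EPHA4 (-2.99) and NRP2 (2.08).

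Single tags stood apart from the rest of their group in 10 of 80 groups checked, where chance gives about 1 in 20. In 2DMono these were EPHA2 (44.1 CPM), PLXND1 (36.3) and ROBO4 (1.19) in AcDop 2, SEMA3E (84.7) and ROBO3 (1.28) in AcDop 1 and UNC5A (25.4) in AcMor 1. In 3DMono they were NRP2 (42.9) in AcMor 2 and SLIT3 (28.9) in AcMor 1. In 3DFusi it was EPHB6 (1.79) in Vehic 4, and among 2DCocu Vehic tags EPHA7 (122) in Vehic 3.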

How the results depend on the processing

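Of the values of single members under an alternative, 1668 kept direction and side of the threshold, 345 kept direction only and 6 reversed. Shares of all genes under the alternatives are not given here. Of counts of members called, those that moved by over 1.5 times were these, and the cause was not tested. Vehic tags alone, with fewer tags, gave 21 for 3DMono against 2DMono, 20 for 2DCocu against 2DMono, 1 for 3DFusi against 3DMono, and 8 each for the gated GABAergic comparison of 3DMono with 2DMono and both gated comparisons of 3DFusi with 2DCocu. In 3DFusi against 2DCocu they reversed DCC (0.21 on the log2 scale), EPHA5 (0.18) and ROBO3 (0.088), all short of the threshold. DESeq2 gave 13 for 3DFusi against 3DMono, 13 for AcMor in 2DCocu, 3 for AcMor in 3DMono and 1 for AcCoc in gated glutamatergic 2DCocu neurons. No filter on low counts gave 1 for AcMor in 2DMono, 1 for AcDop and 13 for AcMor in 3DMono, and 3 for AcCoc and 1 for AcMor in those gated neurons. A gate of 4 transmitter counts, with fewer cells, gave 13 for gated glutamatergic 3DFusi against 2DCocu, 19 for neuron type in 2-D, 19 in 3-D and 8 for their difference. It reversed EPHA6 (-0.0073) and ROBO1 (-0.18) in 2-D and ROBO1 (0.16) in the difference. Tags with at least 10 gated cells gave 1 for AcCoc, and 3DFusi tags summed by number 0 for 3DFusi against 3DMono. With the replicate block 1 member passed for AcMor in 2DCocu, and the block moved no other count by over 1.5 times. Leaving out 1 tag gave 7 to 17 for AcCoc and 0 to 8 for AcMor in 2DCocu, 0 to 9 for AcMor in 3DMono (9 without AcMor 2), 0 to 1 for AcMor in gated neurons, 17 to 21 for gated glutamatergic 3DMono against 2DMono and 33 to 50 for the 2-D protocols. Vehic tags alone gave no value for gated glutamatergic 3DMono against 2DMono, nor the gate of 4 counts for the gated treatment comparisons. Gated tags hold few cells, which limits members with low counts.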
